A study of Saccharomyces cerevisiae with 4 samples.

Results

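Mitochondria make only a few of their own proteins, and the rest are imported as precursors from the cytosol. The receptors Tom20, Tom22 and Tom70 bind precursors at the outer membrane, and the channel of Tom40 lets them through. Precursors with a presequence are then taken up by Tim50 and pass through the inner membrane at Tim23 and Tim17, while Tim44 ties the matrix motor to that channel. Small cysteine-rich proteins stop in the intermembrane space, where Mia40 gives them disulfide bonds and Erv1 reoxidizes Mia40. The genes of these proteins, TOM20, TOM22, TOM40, TOM70, TIM17, TIM23, TIM44, TIM50, MIA40 and ERV1, were chosen by name, and they are 10 of the 6209 genes with a read in the table.

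The cells were Saccharomyces cerevisiae BY4741, a haploid laboratory strain (MATa his3 leu2 met15 ura3) grown in YPD, a rich glucose medium, at 28 °C. Controls were left untreated, and the other cultures had 3 µg/mL thiolutin, an antibiotic with a disulfide ring that binds metals and blocks transcription in yeast, for 3 h. RNA was analysed from 2 cultures per condition, while the submitters' design text speaks of 3 replicates per condition. The sources also differ on the state of the cultures, exponential in the labels and overnight in the methods. Total reads in genes ranged from 17038991 to 30205335 per library, lower in both thiolutin libraries. The 6 genes specific to a cells had summed levels of 805 to 1903 per library, and 4 genes specific to alpha cells 41.4 to 46.3, in the unit (CPM) described next.

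Levels are CPM, the reads of a gene relative to the reads of its library, on the TMM scale, which sets the libraries to a common level by leaving out genes with extreme ratios. Differences are log2 fold changes, positive where thiolutin was higher, so that 1 is a doubling. The quasi-likelihood method of edgeR was fitted across 5937 genes, and genes with an adjusted p (Benjamini-Hochberg) under 0.05 are those called higher or lower. All 10 genes of the import machinery passed the filter on low counts. Their raw counts ran from 765 (TOM20, thiolutin replicate 1) to 15411 (TOM70, untreated replicate 2). RNA came from whole cultures, so a lower share of a transcript in each cell and fewer cells that carry it cannot be told apart.

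Thiolutin did not move the import machinery in one direction. Transcripts of both channel subunits of the inner membrane, TIM17 (log2 fold change 1.01) and TIM23 (0.57), rose with TMM scaling, while scaled by total counts they stood at 0.42 and -0.019 and neither passed. Transcripts of the outer membrane receptors TOM20, TOM22 and TOM70, of the inner membrane receptor TIM50 and of the motor anchor TIM44 fell, by 0.66 to 0.75 on the log2 scale. TOM40, MIA40 and ERV1 did not pass the test. In all, 2 of the 10 genes rose, 5 fell and 3 were not called. Of all genes tested, 63.6% were called changed, 31.2% higher and 32.4% lower, so a count of 7 called among 10 lies near the share of all genes. The median log2 fold change was -0.46 over the 10 genes and -0.04 over all genes tested.

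Many nuclear transcripts of mitochondrial proteins carry, after the coding sequence, a site for Puf3, an RNA-binding protein that controls their decay and translation. The motif TGTANATA was searched on the coding strand in the 200 bases after each stop codon. It was held by 7 of the 10 genes, against 14.1% of 6002 coding genes. Of 56 further genes of the import system, described below, 31 held it as well. The window around the match nearest to the stop codon is shown for each of the 7 genes, because the site is shared by genes that moved in different directions. Each is 30 bases of the R64 reference genome (RefSeq), with the match in capitals.
TIM17: tctctcaaccaTGTACATAttatatattga
TIM23: ctgatggcgctTGTATATAgcatttgaaaa
TOM20: ttcttttactcTGTATATAgccctatataa
TIM44: cctattccgctTGTAAATAactccgttatg
TOM40: ataaataattaTGTATATAcgtgggcacca
MIA40: aggatgatacaTGTAAATAcagtaatatta
ERV1: acagattctcgTGTATATAacactccaatc
The match began 160 bases after the stop codon in TIM17 (chrX:147726-147755, + strand), 80 in TIM23 (chrXIV:663650-663679, + strand), 49 in TOM20 (chrVII:644633-644662, + strand) and 53 in TIM44 (chrIX:312502-312531, + strand). It began after 147 bases in TOM40 (chrXIII:669791-669820, + strand), 56 in MIA40 (chrXI:77077-77106, + strand) and 64 in ERV1 (chrVII:544258-544287, + strand). TOM20 held a second match 191 bases after its stop codon. TOM22, TOM70 and TIM50 had no match in this window. Where the transcripts end was not measured.

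The genes with a match thus included both that rose (TIM17 and TIM23), 2 of the 5 that fell (TOM20 and TIM44) and the 3 that were not called. The 3 without a match all fell. Over the 837 genes tested with a match, the median log2 fold change was -0.08, with 28.9% called higher and 34.2% lower, shares close to those of all genes.

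4 promoter motifs of stress and respiratory regulators were also searched, on both strands of the 250 bases before each start codon. They were the heat shock element of Hsf1, the proteasome element of Rpn4 (GGTGGCAAA), the Yap1 element (TTACTAA or TTAGTAA) and CCAAT of the Hap complex. Those of Hsf1, Rpn4 and Yap1 occurred in 0.75%, 1.13% and 6.67% of 6001 promoters and in none of the 10 genes here. CCAAT was found before TOM40, TIM50 and MIA40, 3 of 10, and in 35.4% of all promoters. These are matches of letters in one window and show nothing about the factors.

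TIM17 encodes a subunit of the presequence channel of the inner membrane (YJL143W, chromosome X, 147101 to 147577 of R64, a single exon). Its level was 115 and 85.6 CPM in untreated cells and 202 and 201 CPM in thiolutin-treated cells, from 4259, 3157, 2801 and 3527 raw counts. The groups did not overlap, and most of the spread lay between the untreated cultures. The log2 fold change was 1.01 (standard error 0.16, adjusted p = 0.00440 from edgeR), the 84.1 percentile of all genes tested. It was 1.25 without untreated replicate 1 and 0.81 without untreated replicate 2. TIM23, the other channel subunit (YNR017W, chromosome XIV, 662913 to 663581, a single exon), had 118 and 105 CPM untreated and 164 and 168 CPM with thiolutin. The groups did not overlap, and the log2 fold change was 0.57 (standard error 0.10, adjusted p = 0.00609 from edgeR).

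TIM17 lies 427 bp downstream of ROQ1, a gene on the same strand whose log2 fold change was 3.12 (adjusted p = 0.000146 from edgeR) and whose mean raw count, 9699, was above that of TIM17. The convergent neighbour of TIM17, IRC9 at 241 bp, was also called higher (1.58, adjusted p = 0.0112 from edgeR), on a mean raw count of 111. The part of these neighbours in the value of TIM17 was not tested. The neighbours of TIM23 moved in both directions: ACC1, divergent at 1538 bp, had a log2 fold change of 0.97, and RCF2, 688 bp downstream, one of -0.53. No annotated gene overlapped any of the 10 genes, and gaps to the nearest neighbours ran from 225 to 1538 bp. Of the 19 neighbours tested, 7 were called higher and 5 lower, a count near the share of all genes tested that were called (63.6%).

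TIM50, the receptor that hands presequences to the channel (YPL063W, chromosome XVI, 429939 to 431369, a single exon), went the other way. It had 240 and 262 CPM in untreated cells and 153 and 147.5 CPM with thiolutin. TIM44, which anchors the Hsp70 motor to the channel (YIL022W, chromosome IX, 311165 to 312460, a single exon), had 193 and 189 CPM untreated and 115 and 114 CPM with thiolutin. Each fell in both thiolutin libraries, with no overlap between the groups. The log2 fold change was -0.74 for TIM50 (standard error 0.096, adjusted p = 0.00218 from edgeR) and also -0.74 for TIM44 (standard error 0.086, adjusted p = 0.00154 from edgeR). Subunits of the TIM23 complex thus moved apart at the level of RNA.

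Among the receptors of the outer membrane, TOM20, which recognizes presequences (YGR082W, chromosome VII, 644044 to 644595, a single exon), had 108 and 87.1 CPM in untreated cells and 55.2 and 60.5 CPM with thiolutin. Its log2 fold change was -0.75 (standard error 0.13, adjusted p = 0.00628 from edgeR). TOM22, the central receptor that also holds the complex together (YNL131W, chromosome XIV, 378767 to 379225, a single exon), had 218 and 236 CPM untreated and 141 and 146 CPM with thiolutin. Its log2 fold change was -0.66 (standard error 0.094, adjusted p = 0.00296 from edgeR). TOM70, the receptor for carrier precursors brought by cytosolic chaperones (YNL121C, chromosome XIV, 398684 to 400537, minus strand, a single exon), was the most counted of the 10, with 390 and 418 CPM untreated and 255 and 249 CPM with thiolutin. Its log2 fold change was -0.68 (standard error 0.093, adjusted p = 0.00254 from edgeR). The groups of these 3 receptors did not overlap, which also held for 84.6% of all genes tested. The convergent neighbour of TOM20, GCD2 at 264 bp, moved the opposite way (0.93). MRP35, 313 bp downstream of TOM70 on the same strand, moved the same way as TOM70 (-0.57, adjusted p = 0.0358 from edgeR). The other neighbours of these receptors were not called.

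TOM40, the pore itself (YMR203W, chromosome XIII, 668492 to 669655, a single exon), had 165 and 176 CPM in untreated cells and 144 and 139 CPM with thiolutin. The groups did not overlap, but the log2 fold change of -0.26 (95% interval -0.50 to -0.03) did not pass after adjustment (adjusted p = 0.0522 from edgeR). It passed at 0.0493 with no filter on low counts. MIA40, the oxidoreductase of the intermembrane space (YKL195W, chromosome XI, 75821 to 77032, a single exon), had 209 and 192 CPM untreated and 183 and 187 CPM with thiolutin. The log2 fold change was -0.11 (95% interval -0.35 to 0.13, adjusted p = 0.331 from edgeR). ERV1, the sulfhydryl oxidase that recycles Mia40 (YGR029W, chromosome VII, 543553 to 544205, 2 exons), was the lowest of the 10 in untreated cells, with 62.2 and 49.4 CPM untreated and 58.9 and 60.0 CPM with thiolutin. It was the only one of the 10 whose groups overlapped (log2 fold change 0.09, 95% interval -0.25 to 0.43, adjusted p = 0.568 from edgeR). The count table gives ERV1 the end of its first exon, so whether its second exon was counted is not known, and its level per length may be off. Groups did not overlap for 9 of the 10 genes, against 84.6% of all genes tested (40.8% with both thiolutin libraries above, 43.9% with both below).

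**Figure D1:**
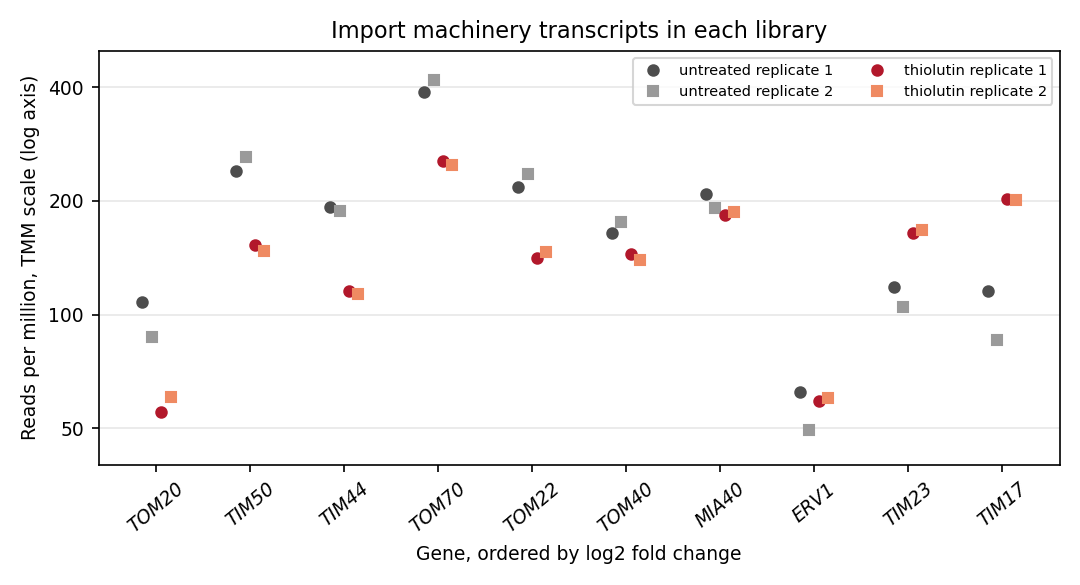
CPM on the TMM scale (log axis) of the 10 import genes in each of the 4 libraries, one point per library, ordered by log2 fold change. TIM23 and TIM17 at the right are higher in both thiolutin libraries, TIM17 at 202 and 201 against 115 and 85.6, and the 5 genes at the left are lower.

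The calls rest on 2 cultures per condition, and the untreated pair differed more than the thiolutin pair. TIM17 had 1.35 times as much in one untreated culture as in the other, and 1.00 times between the thiolutin cultures. Over the 10 genes the ratio of the higher to the lower library was 1.02 to 1.35 in the untreated pair and 1.00 to 1.10 in the thiolutin pair. Over all well-counted genes, spread relative to counting noise (chi-square per degree of freedom) was 149 in the untreated pair and 2.66 in the thiolutin pair. The main fit takes a single spread per gene for both conditions. With thiolutin replicate 1 left out, only TIM17 (adjusted p = 0.0305 from edgeR) and TIM44 (0.0470) were still called. TIM50, TOM20, TOM70, TOM22 and TIM23 then had an adjusted p from edgeR of 0.0520, 0.0638, 0.0697, 0.0793 and 0.0799. With thiolutin replicate 2 left out, TIM17 (0.0286) and TOM20 (0.0392) were called, and TIM44, TIM50, TOM22, TOM70 and TIM23 had an adjusted p from edgeR of 0.0515, 0.0632, 0.0667, 0.0807 and 0.0910. A fit with 1 thiolutin library takes its spread from the untreated pair alone. Without untreated replicate 1, TOM40 (-0.30) was called lower and ERV1 (0.28) higher. Without untreated replicate 2, TOM40 (-0.21) and MIA40 (-0.17) were called lower, and ERV1 stood at -0.060, each of these fits taking its spread from the thiolutin pair alone. For the 7 called genes the sign was kept with each library left out.

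The scale of the libraries sets the level of all these values. Scaled by total counts, the log2 fold changes of all genes had a median of -0.63. The 10 genes kept their order, from -1.34 for TOM20 to 0.42 for TIM17, and 8 of them were then called lower, with TOM40 at -0.85, MIA40 at -0.70 and ERV1 at -0.50. TIM17 (adjusted p = 0.0550 from edgeR) and TIM23 (0.875) were not called on that scale. The 10 genes took 0.222% of all reads in each untreated library and 0.120% in each thiolutin library. On the TMM scale they summed to 1818 and 1799 CPM untreated and 1472 CPM in each thiolutin library. Both scales compare shares of the sequenced RNA, and RNA per cell was not analysed here.

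**Figure D2:**
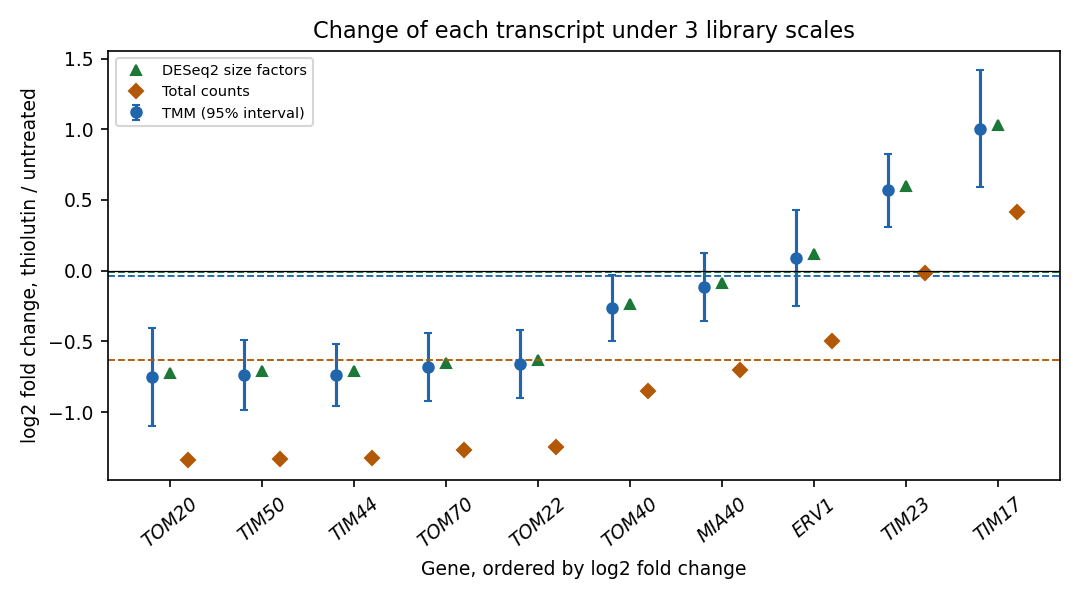
Log2 fold change of each of the 10 genes with TMM (points with 95% intervals), the size factors of DESeq2 and total counts as the scale; dashed lines mark the median of all genes on each scale. Total counts lower every gene together, and TIM17 and TIM23 stay above the median of all genes on each scale.

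Ratios between transcripts of the same library do not depend on that scale. Per base of exon, TIM17 had 1.63 and 1.23 times the reads of TIM44 in untreated cells and 4.76 and 4.82 times with thiolutin, 3.35 times the untreated ratio. TIM23 had 1.06 and 0.858 times the reads of TIM50 untreated and 2.30 and 2.43 times with thiolutin. TIM17 against TIM23 went from 1.37 and 1.14 to 1.73 and 1.68. In the outer membrane complex, TOM20 against TOM40 went from 1.38 and 1.04 to 0.807 and 0.915, TOM70 against TOM40 from 1.49 in each to 1.11 and 1.12, and TOM22 against TOM40 from 3.36 and 3.40 to 2.48 and 2.66. Groups did not overlap in any of the 8 ratios computed, and for single genes this held for 84.6% of all genes tested. MIA40 against ERV1, neither of them called, was among the 8, at 1.58 and 1.83 untreated and 1.47 in each thiolutin library. The share over ratios of other genes was not computed. An exact two-sided permutation test of 2 libraries against 2 cannot go below 0.333, so none of the ratios can pass alone.

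Per kilobase of exon, TOM22 had the highest level of the 10 in untreated cells, 494 ± 27.6 CPM per kb (SD, n = 2), and ERV1 the lowest, 97.9 ± 15.9. Between them lay TOM70 (218), TIM17 (211), TOM20 (177), TIM50 (175), TIM23 (167) and MIA40 (165), each of which overlapped its neighbour in this order, and then TIM44 (147) and TOM40 (146), which overlapped each other. With thiolutin TIM17 came first, at 423 ± 1.34 CPM per kb (SD, n = 2), followed by TOM22 (313), TIM23 (248), MIA40 (153), TOM70 (136) and TOM40 (122) without overlap. TIM50, TOM20 and ERV1, at 105, 105 and 104, overlapped, and TIM44 was lowest at 88.3. Of the summed reads per base of the 10 genes, TIM17 made up 11.9% and 9.16% in untreated cells and 23.7% and 23.4% with thiolutin.

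**Figure D3:**
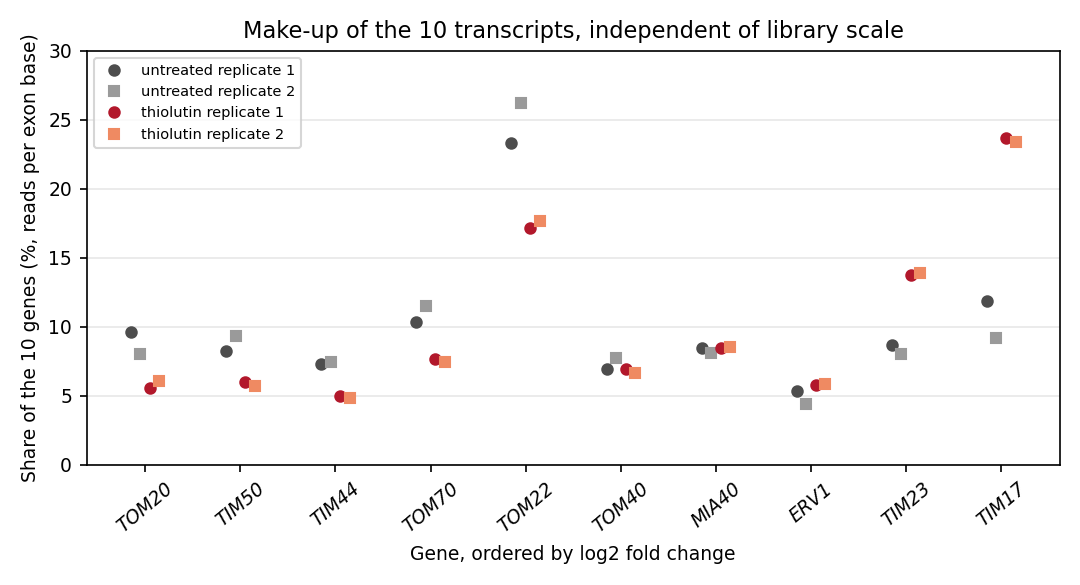
Share of each gene in the summed reads per exon base of the 10 genes (percent), one point per library. TIM17 goes from 11.9% and 9.16% in the untreated libraries to 23.7% and 23.4% with thiolutin, and TOM22 from 23.3% and 26.2% to 17.2% and 17.6%.

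The genes with the pattern most like TIM17 over the 4 libraries, by the sum of squared differences of centred log2 CPM, were YMR114C (0.00157), ATG45 (0.00186) and HRT1 (0.00259). Those most like TOM20 were BRL1 (0.00179), THI73 (0.00206) and POG1 (0.00218). Only 4 points enter this measure, so it describes these libraries.

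The rest of the import system was described with 56 further genes in 9 lists written from textbook knowledge, and all 56 were tested. Of these, 18 (32.1%) were higher and 21 (37.5%) lower, near the shares of all genes. The counts were 11 to 22 higher and 8 to 29 lower with each library left out, lowest without thiolutin replicate 2 for higher and without thiolutin replicate 1 for lower genes. With total counts as the scale 9 were higher and 37 lower. The counts of single lists below, each of few genes, stand beside 31.2% higher and 32.4% lower among all genes tested.

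Of the other 4 TOM subunits, TOM6, a small subunit that stabilizes the complex, rose from 49.5 and 37.3 to 75.6 and 74.6 CPM (log2 fold change 0.79, adjusted p = 0.00781 from edgeR). TOM5, a small subunit beside the pore, fell from 117 and 92.3 to 54.3 and 58.6 CPM (-0.89, adjusted p = 0.00421 from edgeR). TOM7 fell as well (-0.35), a call lost without thiolutin replicate 1 (0.160) or 2 (0.273, adjusted p from edgeR) and with DESeq2, and TOM71, the paralog of TOM70, was not called (-0.17). TOM6 was thus the only TOM gene described here that rose, and it did not pass with total counts as the scale (0.20, adjusted p = 0.256 from edgeR).

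Of 7 further subunits of the TIM23 complex and its motor, 3 rose and 3 fell. PAM17 rose from 86.4 and 79.3 to 158 and 163 CPM (0.95, adjusted p = 0.000945 from edgeR). It was also called higher with total counts as the scale (0.36). The rise of MGE1 (0.30, adjusted p = 0.0415 from edgeR) was not called with the replicate number as a block. With total counts as the scale MGE1 was called lower (-0.29). SSC1, the Hsp70 of the motor, rose from 1396 and 1599 to 3162 and 3264 CPM (1.10, standard error 0.12, adjusted p = 0.00114 from edgeR). SSC1 can share reads with its close relative ECM10, and its divergent neighbour TAH11, 445 bp away, changed more (2.17). MGR2, which guards the sideways exit of the channel, fell from 74.1 and 59.0 to 34.7 and 34.9 CPM (-0.93, adjusted p = 0.00306 from edgeR). All 3 genes of the TIM22 complex, the translocase of carrier proteins, rose, where 31.2% of all genes tested did. The log2 fold change was 0.79 for TIM18, 0.35 for TIM54 and 0.33 for the channel gene TIM22. The call of TIM22 (adjusted p = 0.0480 from edgeR) was lost without thiolutin replicate 1 (0.227) or 2 (0.303), with DESeq2, with no filter and with the replicate number as a block, and that of TIM54 without thiolutin replicate 1 (0.224) or 2 (0.188). With total counts as the scale TIM22 stood at -0.26, TIM18 at 0.20 without a call, and TIM54 was called lower (-0.24).

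Of the 5 small TIM chaperones, which escort hydrophobic precursors across the intermembrane space, 2 rose and 2 fell. Of all genes tested, 31.2% rose and 32.4% fell. TIM12, which docks them on the TIM22 complex, had 10.8 and 8.48 CPM untreated and 17.2 and 17.2 CPM with thiolutin (0.84, adjusted p = 0.00860 from edgeR). TIM9, a partner of Tim10, had 30.2 and 19.2 CPM untreated and 12.4 and 14.4 CPM with thiolutin (-0.88, adjusted p = 0.0287 from edgeR). TIM9 stood at -0.50 without untreated replicate 1 and at -1.16 without untreated replicate 2. The calls of TIM12 and TIM9 were lost without thiolutin replicate 1 (adjusted p = 0.0622 and 0.121 from edgeR) or 2 (0.0620 and 0.0711), and TIM12 was not called with total counts as the scale (0.25).

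The SAM and MIM complexes insert proteins into the outer membrane, and 3 of their 6 genes fell, against 32.4% of all genes tested. MIM1, which inserts helical proteins, fell from 50.1 and 34.4 to 15.4 and 14.3 CPM (-1.51, standard error 0.21, adjusted p = 0.00266 from edgeR). SAM50, the core that inserts beta-barrel proteins such as Tom40, fell from 93.4 and 79.0 to 42.9 and 41.0 CPM (-1.04, standard error 0.11, adjusted p = 0.00128 from edgeR). SAM37, a helper of SAM50, rose from 26.8 and 23.3 to 39.7 and 45.1 CPM (0.76, adjusted p = 0.00481 from edgeR). It was not called without thiolutin replicate 2 (adjusted p = 0.0551 from edgeR) or with total counts as the scale (0.17).

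Of 8 genes that process imported precursors, 1 rose and 4 fell, against 31.2% and 32.4% of all genes tested. MAS1, a subunit of the peptidase that removes presequences, rose from 69.0 and 62.7 to 125 and 135 CPM (0.98, adjusted p = 0.00102 from edgeR), while MAS2, its partner, was not called (0.16, 95% interval -0.07 to 0.38). SOM1, a small subunit of the inner membrane peptidase, had 10.3 and 5.12 CPM untreated and 3.10 and 3.65 CPM with thiolutin (-1.18, adjusted p = 0.0470 from edgeR). This call was lost without thiolutin replicate 1 (0.155) or 2 (0.110), with no filter and with the size factors of DESeq2. The log2 fold change of SOM1 was -0.58 without untreated replicate 1 and -1.59 without untreated replicate 2. Of the 3 genes of insertion from the matrix, OXA1 (-0.50) and the ribosome receptor MBA1 (-0.73) fell, and MDM38 was not called (0.06, and -0.53 with a call on the scale of total counts). OXA1 was not called without thiolutin replicate 1 (0.0847) or 2 (0.145), nor MBA1 without replicate 1 (0.109), by adjusted p from edgeR.

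Genes listed for the cysteine proteins that Mia40 and Erv1 act on moved both ways. Of 16 such genes, 4 (25%) rose and 5 (31.2%) fell, against 31.2% and 32.4% of all genes tested. Their median log2 fold change was -0.26. HOT13, which is a helper of Mia40 that binds zinc and no standard substrate, rose from 22.5 and 19.6 to 299 and 302 CPM (3.83, standard error 0.12, adjusted p = 6.87e-05 from edgeR). Its neighbours moved less, MDH1 upstream on the same strand by 1.78 and RRP14, convergent at 165 bp, by 2.27. ATP23, a protease that matures a subunit of the ATP synthase, rose from 12.8 and 11.8 to 39.1 and 43.7 CPM (1.75, standard error 0.12, adjusted p = 0.000365 from edgeR). COX17, the copper chaperone of cytochrome c oxidase, had 43.5 and 23.3 CPM untreated and 20.4 and 15.8 CPM with thiolutin (-0.89, adjusted p = 0.0636 from edgeR). It was called without untreated replicate 1 (-0.37) or 2 (-1.28), so 1 untreated library sets its size, and also with DESeq2, the replicate block or total counts as the scale.

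Cells answer clogged import channels with Msp1, an ATPase that pulls out stalled precursors, with Cis1, which recruits it, and with the regulators Pdr3 and Rpn4. PDR3 rose from 76.8 and 86.9 to 176 and 176 CPM (1.11, standard error 0.10, adjusted p = 0.000776 from edgeR). CIS1 rose from 7.94 and 5.99 to 39.1 and 42.3 CPM (2.55, standard error 0.17, adjusted p = 0.000365 from edgeR). RPN4, the activator of proteasome genes, had 188 and 171 CPM untreated and 2077 and 2135 CPM with thiolutin (3.55). MSP1, which lies 261 bp upstream of ERV1 on the same strand, had 67.8 and 51.3 CPM untreated and 73.3 and 78.6 CPM with thiolutin (0.35, adjusted p = 0.0968 from edgeR). MSP1 was called with the replicate number as a block (0.36, adjusted p = 0.0346 from edgeR) and without untreated replicate 1 (0.58) or 2 (0.17), and it stood at -0.24 with total counts as the scale. PDR3, CIS1 and RPN4 rose on that scale as well. Import was not measured in these data, and whether it was clogged was not tested. The authors propose that the rise of RPN4 reflects a burden on protein homeostasis.

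**Figure D4:**
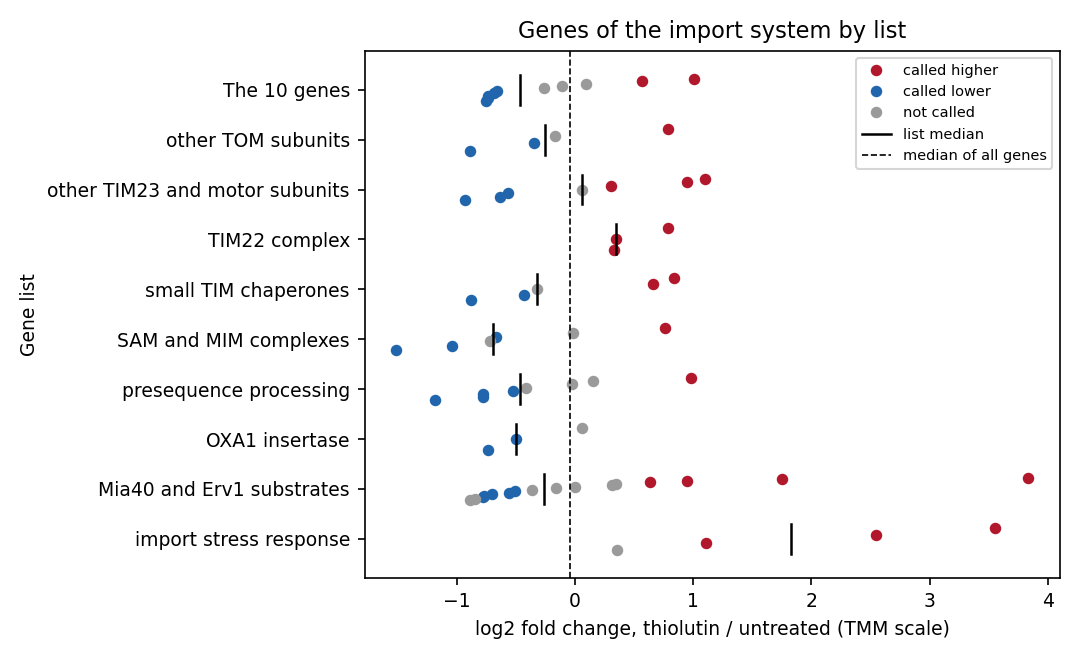
Log2 fold change (TMM scale) of the 10 genes and of the 56 genes of the other lists, one point per gene, coloured by call, with the list median as a bar and the median of all genes as a dashed line. All genes of the TIM22 and import stress lists are above the median of all genes, and each other list has genes on both sides.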

How the data were processed

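Poly(A)-selected RNA was read from both ends on a BGISEQ-500. The authors deposited raw counts of reads per gene on build R64, with no normalization. For the aligner, the counting program, its use of strand and its treatment of reads with several matches, the sources used here give nothing. The authors' normalized counts and the columns of their DESeq2 comparison (fold changes, p and FDR values) were not used. The table held 6209 genes, after 3 rows naming no gene, and 6206 were in the R64 annotation, 5886 with the same start and end.

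Genes passing filterByExpr of edgeR 4.0.16 (5937) were scaled by TMM and tested with glmQLFTest, untreated against thiolutin, 2 libraries each. Standard errors are the absolute log2 fold change over the square root of F. The biological coefficient of variation was 12.2%. The method was also run on simulated counts with a single spread for both conditions and few changed genes. These data differ in both respects, so the simulation cannot show how reliable the calls here are. Lengths are exon sums of R64. The genes and lists were chosen with earlier results of these data known. Named are all 10 genes, genes of the other lists called at a log2 size of at least 1, the highest and lowest of each list, nearest neighbours and the 3 most alike genes. TOM7, TOM71, TIM54, MAS2, OXA1, MGE1 and PAM17 were added after their values were seen. Alternatives were the size factors of DESeq2 1.42.0, total counts, DESeq2, no filter, a replicate block, each library left out, an adjusted p under 0.01 and a log2 size of at least 1. The methods describe the replicates as independent experiments. R 4.3.3, Python 3.11.15, pandas 2.3.3, Biopython 1.88 and matplotlib 3.10.9 were used.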

Additional observations from a re-analysis of the deposited data

How the results depend on the processing

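The size factors of DESeq2 and the DESeq2 test changed no call among the 10 genes. With no filter on low counts TOM40 passed (-0.27). Deviations of same-numbered libraries had a correlation of 0.02 across genes. This cannot show whether the cultures were paired, as spread in the thiolutin pair was near counting noise (chi-square per degree of freedom 2.66). With the number as a replicate block, 2 of the 10 genes were higher and 5 lower, and TIM17 stood at 1.02. The counts were then 17 and 25 for the other lists and 1896 and 1961 for all genes. With total counts as the scale, 0 of the 10 genes were higher and 8 lower, 9 and 37 of the other 56, and 965 and 3605 of all genes. TIM17 was then 0.42 without a call, TIM23 -0.019, TOM40 -0.85, MIA40 -0.70 and ERV1 -0.50, and in the other lists TIM22 -0.26, MDM38 -0.53 and MSP1 -0.24. At an adjusted p under 0.01, 12 genes of the other lists and 1280 of all genes were lower. At an adjusted p under 0.05 together with a log2 size of at least 1, 1 of the 10 genes was higher and 0 lower, 6 and 3 of the other lists and 931 and 613 of all genes.
With each library left out, 1 to 3 of the 10 genes were higher and 1 to 7 lower, 11 to 22 and 8 to 29 of the other lists, and 1163 to 2437 and 893 to 2572 of all genes. Log2 fold changes ranged from -0.89 to -0.58 for TOM20, -0.71 to -0.60 for TOM22, -0.72 to -0.63 for TOM70, -0.30 to -0.21 for TOM40, 0.81 to 1.25 for TIM17, 0.49 to 0.67 for TIM23, -0.79 to -0.67 for TIM50, -0.75 to -0.71 for TIM44, -0.17 to -0.043 for MIA40 and -0.060 to 0.28 for ERV1. With 2 cultures per condition the spread of a single gene is poorly known.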
